A study of Mus musculus with 8 samples.

Results

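The αV integrins and the genes that store and release TGF-β are described here as 10 genes, taken by symbol from the deposited gene table of 22597 genes: Itgav, Itgb1, Itgb3, Itgb5, Itgb8, Nrros, Ltbp1, Ltbp3, Tgfb1 and Furin. All 10 symbols named 1 row each, and all 10 passed the filter on low counts. The data are polyadenylated RNA of cells sorted as interstitial macrophages, which live in lung tissue rather than in the air spaces, from female C57BL/6 mice. All recipients were CD45.1/CD45.2 mice that carry a diphtheria toxin receptor in these cells (IMDTR, named Cx3cr1-DTR in another label). They were irradiated with the thorax shielded and given bone marrow of CD45.2 donors that were either Tgfbr2fl/fl (WT, 4 libraries) or Lyz2Cre Tgfbr2fl/fl (Tgfbr2_KO, 4 libraries, KO 1 to 4). Diphtheria toxin (50 ng), given after 1 month, removed the resident interstitial macrophages so that donor monocytes could replace them, and the macrophages were sorted 10 days later. One label gives an age of 18 weeks at irradiation and another an age of 12 to 16 weeks. Lyz2 is the myeloid gene whose locus drives Cre, so Cre acts in all donor cells that use Lyz2, and only the KO donors carried it, so loss of Tgfbr2 and presence of Cre cannot be told apart. The labels do not say whether the sort excluded host cells, nor that every library is a separate mouse. The p-values therefore rest on library-to-library spread, which could be technical.

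TGF-β is made as a precursor that furin cuts into the mature cytokine and a latency-associated peptide, and the peptide then stays folded around the cytokine and keeps it inactive. The latent complex is held in the matrix by latent TGF-β binding proteins or on the cell surface by a tether such as NRROS, the tether of macrophages and microglia. Integrins made of the αV chain and a β chain bind the latency-associated peptide and release the active cytokine, which then signals through TGFBR2. A macrophage can therefore both receive TGF-β and take part in making it available.

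The sites at which furin and the αV integrins act on the precursor both lie in the Tgfb1 reading frame. They are shown because they join 3 of the 10 genes to each other. In the 390 codons of the annotated transcript (GENCODE M21, GRCm38), codons 244 to 246, for arginine, glycine and aspartate, are the motif that αV integrins bind, and codons 275 to 278 are the furin site. The stretches below run 5′ to 3′ on the plus strand of chromosome 7, from 25696989 to 25697174 across an intron and from 25697211 to 25697270 within 1 exon. Capitals mark the codons named.
Tgfb1 integrin motif: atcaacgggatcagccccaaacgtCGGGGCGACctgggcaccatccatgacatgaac
Tgfb1 furin site: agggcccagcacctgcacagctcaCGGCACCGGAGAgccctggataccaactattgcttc

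Each library held 15597310 to 37654133 estimated counts. Levels are given as CPM (counts relative to the library total, scaled by the trimmed mean of M-values, TMM), and the floor of 3 counts lay at 0.0844 to 0.177 CPM. Tgfbr2, the targeted gene, was at 474 to 548 CPM in WT and 424 to 576 CPM in Tgfbr2_KO libraries, so the gene total does not check the deletion. Lyz2 was at 7285 to 13193 CPM in WT and at 3440 to 5611 CPM in Tgfbr2_KO. Macrophage markers were present in every library (12 of 12, summed at 9635 to 25050.4 CPM), with the lowest sum in KO 1. Epithelial, endothelial and fibroblast markers set WT 1, WT 2 and KO 1 apart from the other 5 libraries. Lymphocyte markers followed the same line, summing to 23.8 to 47.2 CPM in WT 1, WT 2 and KO 1 and to 2.82 to 6.54 CPM in the other 5. Monocyte markers summed to 2276 to 2796 against 1959 to 2061 CPM there, and neutrophil markers to 106 to 113 against 140 to 214 CPM. Of 10 monocyte markers, 3 were higher in each of WT 1, WT 2 and KO 1, namely Ace (562 to 1096 against 109 to 228 CPM), Ly6c1 and Nr4a1. Ly6c2 went the other way, at 17.2 to 28.8 against 32.3 to 55.2 CPM. The neutrophil sum was mostly Csf3r (60.6 to 73.8 against 105 to 142 CPM), while S100a8 overlapped (8.83 to 12.7 against 7.49 to 16.5 CPM). Alveolar macrophage and dendritic cell markers moved along other lines. Alveolar macrophage markers summed to 580.1 and 590.0 CPM in WT 3 and WT 4 and to 158 to 222 CPM in the other 6 libraries, with Chil3 at 348 and 347 CPM against 15.8 to 30.04 CPM. Siglecf stayed at 1.02 to 5.15 CPM. Dendritic cell markers summed to 68.4 to 96.9 CPM in WT and 110.6 to 114.0 CPM in Tgfbr2_KO. Taken singly, 0 of these 8 markers were higher in every KO library than in every WT library. Cd209a was at 29.6 to 31.7 CPM in KO 2 to 4 and 13.2 CPM in KO 1, where Zbtb46 was at 44.5 CPM. Clec9a was lower in KO 2 to 4 (4.49 to 5.58 CPM) than in WT 3 and WT 4 (14.2 and 12.4 CPM). The alveolar macrophage and dendritic cell sums move with the comparison of the 5 other libraries, and their part in the results below was not tested. The 12 endothelial markers summed to 2680 to 5229 CPM in WT 1, WT 2 and KO 1, called lung-rich below, and to 216 to 289 CPM in the others. In bulk RNA, fewer cells of a type and less RNA per cell cannot be told apart. The 3 lung-rich libraries are not a group of the study, and values are given over all 8 libraries, with the library set as a term in the fit, and within each set. The ratio of observed variation to counting noise (median chi-square over genes) was 1.85 between WT 3 and WT 4, 2.06 to 3.07 among KO 2 to 4 and 4.33 between WT 1 and WT 2. If such close libraries are not independent, errors in the 5 other libraries and in the fit with the set are too small.

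Of the 10 genes, the αV chain Itgav fell in Tgfbr2_KO over all 8 libraries, 0 rose and 9 did not pass (edgeR quasi-likelihood test, adjusted p under 0.05). At an unadjusted p under 0.05, 2 were lower and 1 was higher, and DESeq2 called 2 lower and 0 higher, with 3.39% of all genes called by that tool. Among all 12750 genes tested edgeR called 0.298%, with 0.196% higher and 0.102% lower. With the library set as a term, Itgav and its β partner Itgb5 fell and 0 rose (3 higher at an unadjusted p under 0.05, and 2 higher by DESeq2, Nrros and Ltbp1), where edgeR called 16.5% of all genes, 8.59% higher and 7.89% lower, and DESeq2 17.4%. In the 5 other libraries alone Itgav, Itgb5 and Ltbp3 fell and Nrros, Tgfb1, Furin and Itgb1 rose. The background there was 38.5%, with 19.7% higher and 18.7% lower. The median log2 fold change of the 10 genes was -0.04 over 8 libraries, 0.04 with the set and 0.17 in the 5 other libraries, and the medians over all genes tested were -0.01, 0.03 and -0.00195.

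The WT and KO ranges did not overlap over 8 libraries for 2 of the 10 genes, Itgav and Itgb5, both lower in Tgfbr2_KO. Of all genes tested 6.90% did not overlap, 4.19% with KO higher and 2.71% with KO lower. In the 5 other libraries 6 of the 10 genes lay above WT and 3 below, against a background of 59.1% (29.0% above, 30.2% below). In WT 1, WT 2 and KO 1, KO 1 lay above both WT libraries for 4 genes and below both for 5, against 79.2% (46.4% above, 32.8% below), so separation within a set was common among all genes.

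**Figure D1:**
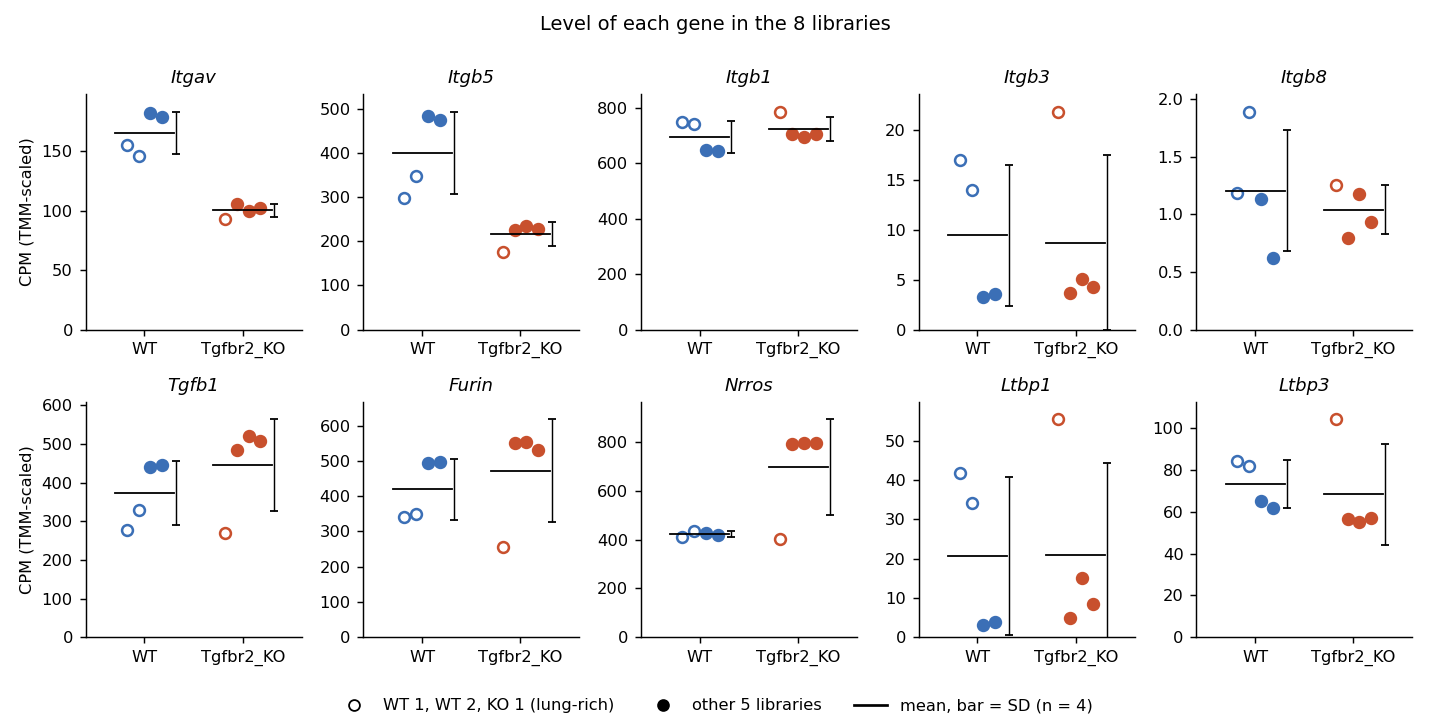
Each panel plots TMM-scaled CPM of 1 gene in WT and Tgfbr2_KO libraries (linear axis from 0), with open points for WT 1, WT 2 and KO 1, filled points for the other 5, a line at the mean and a bar of 1 SD (n = 4). The genotypes separate for Itgav and Itgb5, and KO 1 lies apart from KO 2 to 4 for Nrros, Tgfb1 and Furin. The open points lie highest for Itgb3, Ltbp1, Ltbp3 and Itgb1, and by a small margin for Itgb8.

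Itgav (ENSMUSG00000027087, GRCm38 chromosome 2, 83724397 to 83806916, plus strand) encodes the αV chain that all of these TGF-β-releasing integrins share. CPM of Itgav was 155, 146, 182 and 178 in WT 1, 2, 3 and 4, and 93.1, 106, 99.8 and 103 in KO 1, 2, 3 and 4. Every KO library lay below every WT library, in both library sets. KO libraries averaged 100.3 ± 5.39 CPM and WT libraries 165 ± 17.6 (SD, n = 4 each), which put KO at 60.6% of WT, for a log2 ratio of -0.72 (SE 0.09, 95% interval -0.93 to -0.51, edgeR adjusted p = 0.035). The log2 ratio was -0.77 with the library set (SE 0.05, edgeR adjusted p = 1.52e-04). Within the sets it was -0.81 for the 5 other libraries and -0.76 for KO 1 against WT 1 and WT 2.

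The pooled call for Itgav ended when any 1 library other than KO 1 was left out (edgeR adjusted p up to 0.289, log2 fold change -0.78 to -0.67), while with the set it stood under every library left out (edgeR adjusted p up to 0.00205). Divided by the summed macrophage markers, a scale chosen after seeing the data, Itgav no longer separated the genotypes. It was at 7.12 to 10.5 CPM per 1000 CPM of markers in WT, at 4.67 to 5.02 in KO 2 to 4 and at 9.66 in KO 1. Another transcript on the opposite strand, Gm13684, shares 5.90% of the exonic bases of Itgav, and the strand setting of the counting is not given.

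Itgb5 (ENSMUSG00000022817, chromosome 16, 33829665 to 33949338, plus strand) encodes β5, which pairs with αV only. CPM of Itgb5 was 297, 348, 483 and 474 in WT 1, 2, 3 and 4, and 175, 226, 235 and 228 in KO 1, 2, 3 and 4. All KO libraries lay below all WT libraries, and the lung-rich libraries were the lowest within each genotype. KO libraries averaged 216 ± 27.4 CPM, 54.0% of the 400.2 ± 92.5 CPM in WT (SD, n = 4 each). The difference of -0.89 on the log2 scale (SE 0.19) over 8 libraries missed the threshold (edgeR adjusted p = 0.133). In the fit with the set it was -0.99 (SE 0.07, 95% interval -1.15 to -0.84, edgeR adjusted p = 1.76e-04). Within the 5 other libraries it was -1.06 (edgeR adjusted p = 1.92e-15) and -0.94 for KO 1 against WT 1 and WT 2. Divided by the macrophage markers it still separated the genotypes, at 18.9 to 21.3 per 1000 CPM of markers in WT and 10.7 to 18.2 in Tgfbr2_KO, with KO 1 the highest of these. The share of all genes that separate on this scale was not counted.

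The lung-rich set holds 1 KO library, so an interaction of genotype and set compares KO 1 with the rest and takes its spread from the other groups. It was 0.12 for Itgav (95% interval -0.05 to 0.29, edgeR adjusted p = 0.337) and 0.18 for Itgb5 (95% interval -0.04 to 0.40, edgeR adjusted p = 0.256). Itgb5 was at 1.88 to 2.66 times the CPM of Itgav, counted within each library and not per length, with ratios of 1.91 to 2.66 in WT and 1.88 to 2.36 in Tgfbr2_KO that overlapped.

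The promoters of these 2 genes are shown because both were lower in every KO library. RefSeq promoter windows were matched for 9 of the 10 genes, with 11 start sites. The 250 bases before the start of each are printed 5′ to 3′ on the plus strand (GRCm38.p6, chr2:83724147-83724396 and chr16:33829415-33829664). Capitals mark matches, on either strand, to GGCGC, a GC-rich Smad motif.
Itgav: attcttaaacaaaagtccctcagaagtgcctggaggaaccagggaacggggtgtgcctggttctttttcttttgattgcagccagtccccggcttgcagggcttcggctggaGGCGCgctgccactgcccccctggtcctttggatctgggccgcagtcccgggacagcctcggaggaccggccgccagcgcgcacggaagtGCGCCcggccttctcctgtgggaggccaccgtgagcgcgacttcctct
Itgb5: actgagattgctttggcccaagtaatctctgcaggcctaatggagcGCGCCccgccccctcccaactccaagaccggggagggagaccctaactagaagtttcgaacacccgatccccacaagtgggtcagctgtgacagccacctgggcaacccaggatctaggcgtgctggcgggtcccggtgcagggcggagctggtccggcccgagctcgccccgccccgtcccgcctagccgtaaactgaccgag
The Itgav window held 2 such matches and the Itgb5 window 1. At least 1 was in 7 of the 11 windows of these genes, and 32% of all 32851 windows of this length held one. The Smad box CAGAC (either strand) was in neither window, in 8 of the 11 windows of these genes and in 42.2% of all windows. On both strands, the AP-1 motif TGANTCA was in 0 of the 11 windows and in 6.75% of all. GAGGAA, a core of the macrophage factor PU.1, was in 3 of 11 windows, Itgav among them, and in 23.3% of all. A match is a description of letters and not a binding site.

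Itgb1 encodes β1, the β chain that pairs with αV and with many other α chains. CPM of Itgb1 was 747, 743, 646 and 646 in WT 1, 2, 3 and 4, and 785, 704, 695 and 705 in KO 1, 2, 3 and 4. The genotypes overlapped over 8 libraries, and within each set KO was slightly higher. KO differed from WT by 0.06 (log2; SE 0.10, 95% interval -0.17 to 0.28, edgeR adjusted p = 1.00), by 0.10 with the library set (edgeR adjusted p = 0.174) and 0.12 in the 5 other libraries (SE 0.03, edgeR adjusted p = 0.00163). The interval with all 8 libraries does not include a fall of the size seen for Itgav or Itgb5.

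Itgb3 encodes β3, which makes the vitronectin receptor with αV and the fibrinogen receptor of platelets with the αIIb chain. CPM of Itgb3 was 17.0, 13.9, 3.23 and 3.54 in WT 1, 2, 3 and 4, and 21.8, 3.67, 5.05 and 4.23 in KO 1, 2, 3 and 4. The 3 lung-rich libraries were high in both genotypes and the other 5 low. Between genotypes Itgb3 differed by -0.11 (log2; SE 0.81, edgeR adjusted p = 1.00), or by 0.41 in the fit with the set (SE 0.13, edgeR adjusted p = 0.0659). Of 12 platelet markers, 9 were also higher in each lung-rich library than in each other library, with Itga2b, which encodes αIIb, at 4.83 to 8.99 CPM against 0.816 to 1.33 CPM. The 12 summed to 145 to 213 CPM in WT and 255 to 498 CPM in Tgfbr2_KO, the latter mostly Pf4. The platelet glycoproteins Gp9 and Gp6 reached at most 1.83 and 1.42 CPM, and Gp6 was at 0 in KO 3. The part of platelets or lung cells in the Itgb3 level was not tested.

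Itgb8 encodes β8, which releases TGF-β with αV in dendritic cells and epithelium. It was the lowest of the 10 genes, with 17 to 43 counts per library. CPM of Itgb8 was 1.18, 1.89, 1.13 and 0.619 in WT 1, 2, 3 and 4, and 1.26, 0.792, 1.17 and 0.935 in KO 1, 2, 3 and 4. The values were above the floor of 3 counts and overlapped. Its difference was -0.21 (log2, 95% interval -1.07 to 0.65, edgeR adjusted p = 1.00). A fall as large as that of Itgav could thus not be seen or excluded at this depth.

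**Figure D2:**
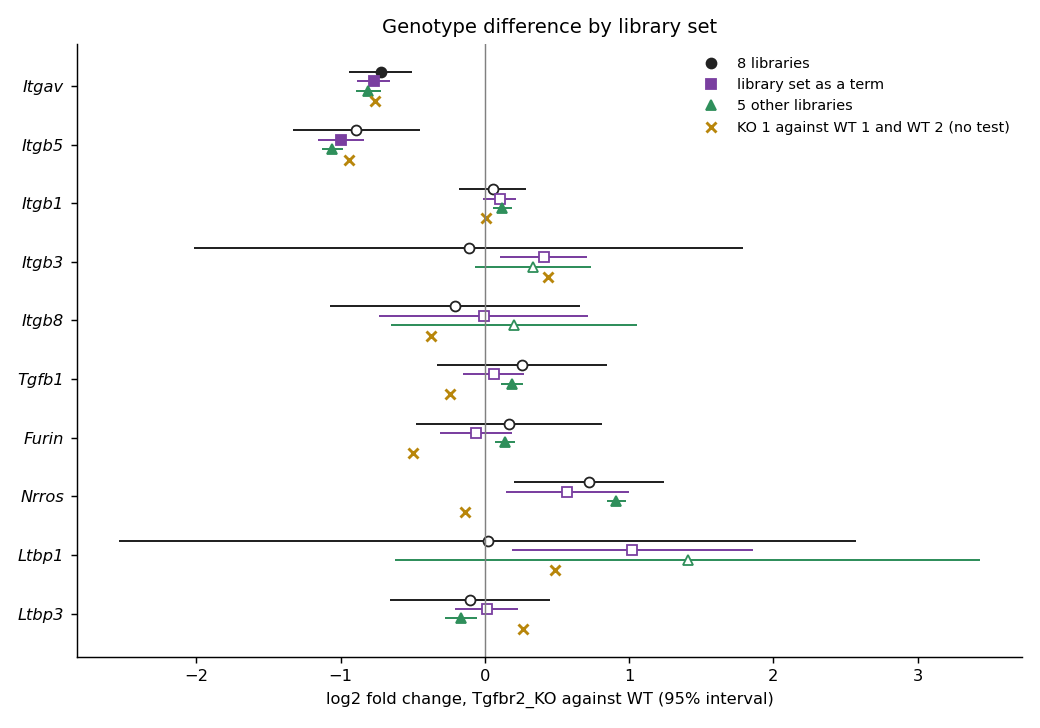
Log2 fold changes of Tgfbr2_KO against WT (x axis) for each of the 10 genes, with 95% intervals, over 8 libraries (circles), with the library set as a term (squares), in the 5 other libraries (triangles), and for KO 1 against WT 1 and WT 2 (crosses, no test). Filled symbols passed at an edgeR adjusted p under 0.05. For Itgav and Itgb5 all 4 values lie between -1.06 and -0.72, while for Nrros, Tgfb1 and Furin the cross lies on the other side of 0 from the triangle.

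Tgfb1 (ENSMUSG00000002603, chromosome 7, 25687002 to 25705077, plus strand) encodes the ligand, and it did not pass over 8 libraries. CPM of Tgfb1 was 278, 329, 439 and 445 in WT 1, 2, 3 and 4, and 269, 484, 520.3 and 508 in KO 1, 2, 3 and 4. KO 2 to 4 lay above every WT library and KO 1 below every one. The genotype difference was 0.26 (log2; SE 0.25, edgeR adjusted p = 0.944), 0.06 with the library set (edgeR adjusted p = 0.682), 0.19 in the 5 other libraries (SE 0.03, edgeR adjusted p = 1.33e-04) and -0.24 for KO 1 against WT 1 and WT 2.

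Furin, the protease that cuts the precursor at the second site printed above, had a like pattern. CPM of Furin was 342, 348, 495 and 496 in WT 1, 2, 3 and 4, and 255, 551, 555 and 529.9 in KO 1, 2, 3 and 4. KO 1 was the lowest of all 8 libraries and KO 2 to 4 were the highest. Genotypes differed by 0.17 (log2; SE 0.27, edgeR adjusted p = 1.00), by -0.06 with the set (edgeR adjusted p = 0.739), 0.14 in the 5 other libraries (SE 0.03, edgeR adjusted p = 9.37e-04) and -0.50 for KO 1 against WT 1 and WT 2.

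Nrros (ENSMUSG00000052384, chromosome 16, 32142785 to 32165594, minus strand), whose protein tethers latent TGF-β on macrophages and microglia, was higher in 3 of the 4 KO libraries. CPM of Nrros was 410.3, 436, 427 and 420.1 in WT 1, 2, 3 and 4, and 402, 794, 797 and 795 in KO 1, 2, 3 and 4. WT libraries of both sets had an SD of 10.9 CPM (n = 4), KO 2 to 4 were all higher, and KO 1 was the lowest of the 8. In the 5 other libraries it rose to 188% of WT, or by 0.91 on the log2 scale (SE 0.03, edgeR adjusted p = 4.50e-15), and KO 1 was at 95% of the mean of WT 1 and WT 2. Pooled, it was 0.72 (SE 0.22, edgeR adjusted p = 0.266), and 0.57 with the set (SE 0.18, edgeR adjusted p = 0.0709). Without KO 1 the fold change over 7 libraries was 0.91 (edgeR adjusted p = 5.87e-04), so KO 1 decides the pooled call.

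KO 1 stood apart from what its set and genotype would add up to for 4 of the 10 genes, 1 upward and 3 downward, where 18.9% of all genes tested did (8.84% upward, 10.1% downward). This interaction, which has no replicate on the lung-rich KO side, was -0.98 for Nrros (SE 0.07, edgeR adjusted p = 1.08e-05), -0.57 for Furin (SE 0.07, edgeR adjusted p = 2.25e-04), -0.36 for Tgfb1 (SE 0.11, edgeR adjusted p = 0.0458) and 0.50 for Ltbp3 (SE 0.08, edgeR adjusted p = 0.00161). KO 1 had the lowest macrophage markers (9635 CPM summed, against 14738 and 16374 in WT 1 and WT 2 and 21076 to 25050.4 in the other 5) and the highest endothelial and epithelial ones. Divided by these macrophage markers, Nrros was at 16.8 to 27.8 CPM per 1000 CPM of markers in WT and at 37.3 to 41.7 in Tgfbr2_KO, with KO 1 the highest. On that scale Tgfb1 was at 17.8 to 20.1 in WT and 23.0 to 27.9 in Tgfbr2_KO, and Furin at 19.8 to 23.2 and 25.0 to 26.5. All 3 genes were thus above WT in all KO libraries relative to the macrophage markers, and in KO 2 to 4 alone in CPM. The low marker sum of KO 1 raises every gene there on this scale. Itgb1, for one, was at 81.5 in KO 1 against at most 50.7 in WT, with KO 2 to 4 within the WT range. How many of all genes lie above WT on this scale was not counted. These ratios were not tested. Cx3cr1, 1 of the 12 markers, was lower in every KO library than in any WT library (214 to 358 against 449 to 575 CPM). Apoe made up the largest share of the sum throughout. Its level was 5232 to 6137 CPM in KO 2 to 4, below the 9183 and 9476 CPM of WT 3 and WT 4. The marker sum was also lower in these KO libraries (21076 to 21347 against 24435 and 25050.4 CPM), while Csf1r, Adgre1 and Cd68 were higher. The part of Apoe in the ratios was not tested.

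Ltbp1, a latent TGF-β binding protein that anchors the complex in the matrix, followed the lung-rich libraries. CPM of Ltbp1 was 41.7, 34.3, 3.08 and 3.83 in WT 1, 2, 3 and 4, and 55.4, 4.79, 15.1 and 8.36 in KO 1, 2, 3 and 4. WT 1 and WT 2 were at 11 times the mean of WT 3 and WT 4, and KO 1 at 5.89 times the mean of KO 2 to 4. Between genotypes the log2 difference was 0.02 (SE 1.09, edgeR adjusted p = 1.00) and 1.02 with the set (SE 0.36, edgeR adjusted p = 0.0939). In the 5 other libraries KO 2 to 4 were all above WT 3 and WT 4, at 273% of their mean, a log2 difference of 1.41 (95% interval -0.61 to 3.43) that did not pass (edgeR adjusted p = 0.212).

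Ltbp3 encodes another binding protein of latent TGF-β. CPM of Ltbp3 was 84.3, 82.1, 65.4 and 61.8 in WT 1, 2, 3 and 4, and 104, 56.7, 55.3 and 57.2 in KO 1, 2, 3 and 4. KO 1 was the highest library and KO 2 to 4 the lowest. Genotypes differed by -0.10 (log2) over 8 libraries (SE 0.24, edgeR adjusted p = 1.00), 0.01 with the set (edgeR adjusted p = 0.949) and -0.17 in the 5 other libraries (SE 0.05, edgeR adjusted p = 0.0111). The 12 endothelial markers summed to lower values in KO 2 to 4 (216, 248.8 and 228 CPM) than in WT 3 and WT 4 (287 and 289 CPM), and their part in the Ltbp3 difference was not tested.

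**Figure D3:**
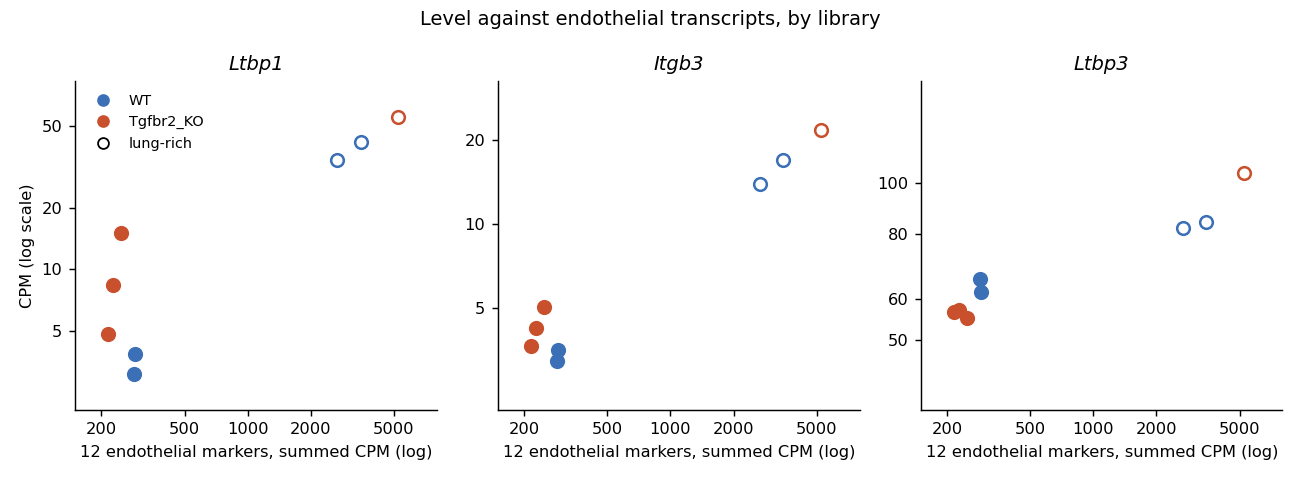
CPM of Ltbp1, Itgb3 and Ltbp3 (y axis, log scale) against the summed CPM of 12 endothelial markers (x axis, log scale), 1 point per library, blue for WT, red for Tgfbr2_KO and open for the lung-rich libraries. The 3 lung-rich libraries, at 2680 to 5229 CPM of endothelial markers, are the highest for all 3 genes, and KO 1 is highest of them.

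Each of the 3 lung-rich libraries was above each of the other 5 for Ltbp1, Itgb3, Ltbp3, Itgb1 and Itgb8 of the 10 genes. Of all genes tested 28.1% were so. For Itgb8 the margin was small, with 1.18 CPM in WT 1 against 1.17 CPM in KO 3. The set coefficient of the fit, lung-rich against other libraries, was 3.03 for Ltbp1, 2.25 for Itgb3, 0.61 for Ltbp3 and 0.19 for Itgb1 on the log2 scale. It was -0.76 for Furin, -0.69 for Tgfb1, -0.49 for Itgb5, -0.40 for Nrros, -0.21 for Itgav and 0.66 for Itgb8, with Nrros and Itgb8 not passing (edgeR adjusted p = 0.104 and 0.0966). Itgav and Itgb5 were thus lower in the lung-rich libraries as well as in Tgfbr2_KO.

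Per kilobase of annotated exons, Itgb1 had the highest level of the 10 genes in each WT library, at 170 ± 14.1 CPM per kb (SD, n = 4). Itgb5 followed in WT at 113 ± 26 CPM per kb, then Nrros at 101 ± 2.61 and Tgfb1 at 73.9 ± 16.4, and the range of Itgb5 overlapped those of Nrros and Tgfb1, which did not overlap each other. Furin was at 45.8 ± 9.44. In KO 2, 3 and 4 Nrros was highest, at 190.1, 190.7 and 190.4 CPM per kb, above Itgb1 at 172, 170.4 and 173. In KO 1 Itgb1 was highest, at 192 CPM per kb, and Nrros was at 96.3. Tgfb1 averaged 88.3 ± 23.5 and Itgb5 60.8 ± 7.71 CPM per kb in Tgfbr2_KO. Itgav averaged 15.4 ± 1.63 and 9.34 ± 0.502 CPM per kb in WT and Tgfbr2_KO, above the means of Ltbp3, Ltbp1 and Itgb3. In KO 1, however, Ltbp3 was at 11.5 and Itgav at 8.67 CPM per kb. Itgb8 was lowest, at 0.109 ± 0.0472 and 0.0939 ± 0.0193. The union of all annotated exons was used as length, 10.744 kb for Itgav against 3.553 kb for Itgb5, so genes with long or rarely used exons come out low on this scale.

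The genes whose log2 CPM was most like Itgav over the 8 libraries, among 8699 with a mean of at least 10 CPM, were Pmepa1 (Pearson r = 0.996), Tmx4, Ivns1abp, Mvb12b and Tmem119 (r = 0.974). Pmepa1, itself induced by TGF-β and a brake on Smads, was at 107 to 148 CPM in WT and 49.0 to 60.9 CPM in Tgfbr2_KO. Those most like Itgb5 were Mgat5 (r = 0.996), Kcnj10, Tgfbr1, Usp2 and Lyz2 (r = 0.992). The Lyz2 locus drives Cre in the KO donors only, and the part of this in the Lyz2 level was not tested. Tgfbr1, the receptor that signals with TGFBR2, was at 405 to 675 CPM in WT and 194 to 304 CPM in Tgfbr2_KO. These r values describe 8 libraries that share 2 genotypes and 2 library sets. Itgav and Itgb5 had r = 0.957 with each other.

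Of the other ligands, latency and activation genes of TGF-β, 25 of 28 were tested. Mmp9, a gelatinase that can release TGF-β from latency, rose over 8 libraries, 0 fell and 24 did not pass (median log2 fold change -0.22; 2 higher and 2 lower at an unadjusted p under 0.05, and by DESeq2 Mmp9 and Pcsk7 higher and Mmp14 and Tgfb3 lower). With the set Mmp9, Pcsk7, Lrrc32 and Bmp1 rose and Mmp14 and Tgfb3 fell, with a median of 0.15. Mmp9 averaged 90.5 ± 18.4 CPM in WT and 1044 ± 302 CPM in Tgfbr2_KO, 3.53 on the log2 scale (SE 0.29, SD over n = 4, edgeR adjusted p = 0.0197). It was at 1589% of WT in the 5 other libraries and at 558% in KO 1 against WT 1 and WT 2. Mmp14, a membrane protease that also releases latent TGF-β, averaged 249.3 ± 127 CPM in WT and 87.7 ± 8.04 CPM in Tgfbr2_KO, -1.58 on the log2 scale with the set (SE 0.21, edgeR adjusted p = 0.00302). Mmp14 was at 25.6% of WT in the 5 other libraries and at 53.9% in KO 1 against WT 1 and WT 2. Tgfb3, another ligand that αV integrins release, averaged 47.9 ± 17.4 and 23.7 ± 1.98 CPM, -1.11 with the set (SE 0.19, edgeR adjusted p = 0.00853). Lrrc32 encodes the tether GARP and differed by 0.63 with the set (SE 0.07, edgeR adjusted p = 0.00137), and Pcsk7, a protease of the furin family, by 0.21 (SE 0.05, edgeR adjusted p = 0.0161). In edgeR over 8 libraries these 4 did not pass, of which DESeq2 called all but Lrrc32 (edgeR adjusted p = 0.173 for Mmp14, 0.21 for Tgfb3, 1.00 for Lrrc32 and 0.144 for Pcsk7). Lrrc32 and Bmp1 were also higher in the lung-rich libraries, Lrrc32 at 38.2 against 17.6 CPM and Bmp1 at 22.6 against 4.87 CPM as means of the WT libraries.

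Of the integrin α chains that pair with β1 or β3, 11 of 12 were tested. By edgeR and by DESeq2, 0 passed over 8 libraries and 0 with the set, and 0 had an unadjusted p under 0.05 (median log2 fold change -0.17 and 0.08). In the 5 other libraries Itga9 and Itga5 rose, to 114% and 109% of WT, and Itga6, Itga8 and Itga1 fell, to 78.5%, 54.8% and 73.8%. KO 1 lay on the other side of the mean of WT 1 and WT 2 for all 5. It was at 93.0% of that mean for Itga9, 66.1% for Itga5, 108% for Itga6, 150.2% for Itga8 and 175% for Itga1. For Itga6, KO 1 lay between WT 1 and WT 2, and for the others beyond both. Itga5, the fibronectin receptor chain, averaged 283 ± 29.0 CPM in WT and 264 ± 41.8 in Tgfbr2_KO. Itga9 averaged 149.9 ± 3.99 and 163 ± 16.4 CPM, the laminin receptor chain Itga6 165 ± 48.0 and 129.7 ± 61.8 CPM, and Itga10 1.51 ± 0.171 and 1.68 ± 0.416 CPM (SD, n = 4 each).

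Among the genes for integrin activation and adhesion adaptors, 24 of 25 were tested and 0 passed in edgeR over 8 libraries (median log2 fold change 0.05; 3 at an unadjusted p under 0.05, and Src and Dab2 by DESeq2). With the set Rap1a, Ptk2 and Vcl rose and Src, Ptk2b, Parvg and Apbb1ip fell. Src, a kinase at adhesion sites, averaged 59.1 ± 10.8 CPM in WT and 35.9 ± 5.18 CPM in Tgfbr2_KO, and the genotypes did not overlap (-0.73 on the log2 scale with the set, SE 0.15, edgeR adjusted p = 0.0177). Src was at 50.0% of WT in the 5 other libraries and at 83.7% in KO 1 against WT 1 and WT 2. Ptk2b, the adhesion kinase PYK2, differed by -0.51 with the set (SE 0.06, edgeR adjusted p = 0.00151), and Rap1a, a small GTPase that activates integrins, by 0.16 (SE 0.04, edgeR adjusted p = 0.0373). Dab2, an adaptor of integrin uptake, was arranged like Nrros: 719 CPM as the mean of WT 3 and WT 4 and 1515 CPM in KO 2 to 4, but 711 CPM in WT 1 and WT 2 and 680.1 CPM in KO 1. Ptk2 and Vcl were also high in the lung-rich libraries, at 49.4 and 183 CPM as means of WT 1 and WT 2 against 6.79 and 49.9 CPM in WT 3 and WT 4.

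For ligands of αV integrins, 27 names were listed, 23 were in the table and 18 were tested. In edgeR 0 passed over 8 libraries (median log2 fold change -0.24; 1 at an unadjusted p under 0.05, Spp1, which DESeq2 called), and L1cam, an adhesion molecule, rose with the set (0.24, SE 0.07, edgeR adjusted p = 0.043). With the set DESeq2 called Spp1 lower and Adam23 higher, and not L1cam. Spp1 encodes osteopontin and averaged 85.4 ± 32.8 CPM in WT and 39.3 ± 12.8 CPM in Tgfbr2_KO (-1.12 on the log2 scale, SE 0.33, edgeR adjusted p = 0.255). It differed by -1.78 in the 5 other libraries and by -0.04 for KO 1 against WT 1 and WT 2. The disintegrins Adam15 and Adam23 averaged 265 ± 10.8 and 12.4 ± 6.90 CPM in WT and 309.8 ± 35.8 and 20.4 ± 4.03 CPM in Tgfbr2_KO. Adam23 was at 351% of WT in the 5 other libraries and at 79.4% in KO 1 against WT 1 and WT 2. Fibronectin, Fn1, averaged 1305 ± 529 CPM in WT and 1320.2 ± 566 CPM in Tgfbr2_KO (SD, n = 4 each).

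**Figure D4:**
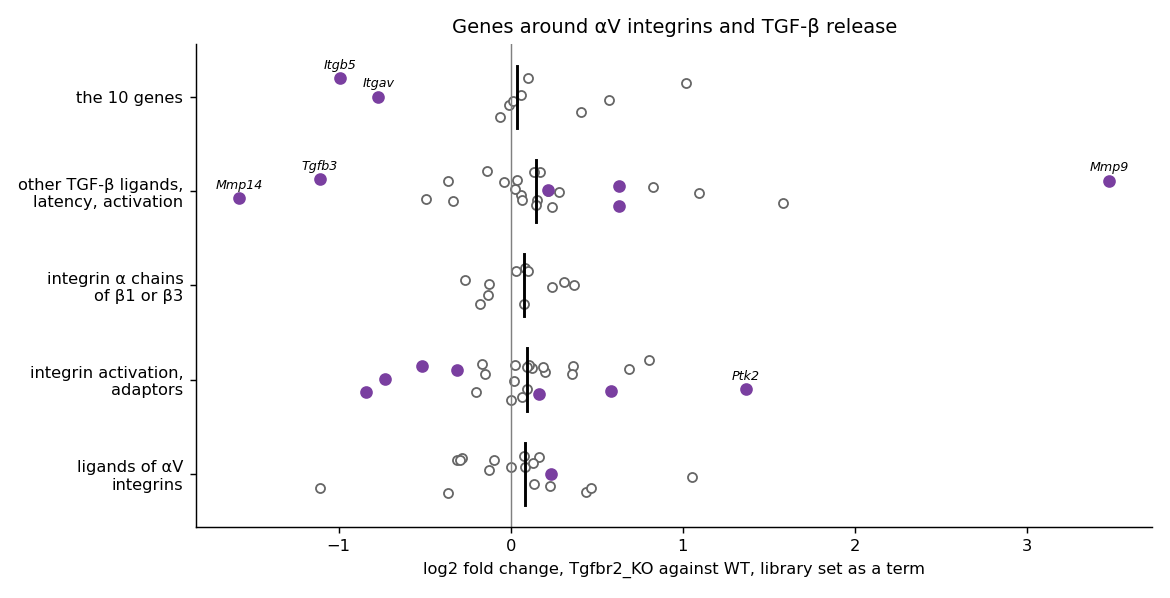
Log2 fold change with the library set as a term (x axis) for each tested gene of the 10 genes and of the 4 lists around them (rows, points spread vertically for legibility), with filled points for an edgeR adjusted p under 0.05 and a black line at each median. Itgav and Itgb5 lie lowest in the top row, and Mmp9 at 3.48 and Mmp14 at -1.58 are the ends of the second row.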

How the data were processed

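Polyadenylated RNA of 8 libraries was analysed. The authors deposited estimated counts of each gene, per the file headers; they are merged salmon output by their name, and sum to different totals. GRCm38 and DESeq2 1.40.1 are named in the submitters' processing notes; the sources used here do not give the salmon version, strand setting or annotation. Estimated counts were rounded and fitted in R 4.3.3 with edgeR 4.0.16 (filterByExpr with minimum count 10 and total 15, 12750 genes; TMM; robust quasi-likelihood F-test; Benjamini-Hochberg over all genes tested, threshold 0.05). Genotype alone was the main design. The fits with the library set, in the 5 other libraries and with the interaction followed. DESeq2 1.42.0 and limma 3.58.1 were alternatives. Recovery of changes was checked on simulated counts that held no difference between the library sets, so the check does not cover that feature of these data. Exon lengths came from GENCODE M21. From each list around the 10 genes, up to 4 genes of smallest p over 8 libraries were to be named, with the 5 genes most alike; others named were chosen after their values were seen. Members, lists and library sets were chosen with earlier results of these data known.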

Additional observations from a re-analysis of the deposited data

Results flagged for a closer look

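In groups of 4 libraries, a library was marked where its gap to the nearest other as a share of the range exceeded Dixon's 95% critical value, which chance gives in about 1 in 20 groups. Of 20 such groups 7 were marked, all in Tgfbr2_KO and each time for KO 1. The share of the range was 0.889 for Itgb1, 0.924 for Itgb3 and 0.959 for Ltbp3, where KO 1 was highest. It was 0.841 for Itgb5, 0.994 for Nrros, 0.855 for Tgfb1 and 0.918 for Furin, where KO 1 was lowest. The genotype effect in the lung-rich libraries less that in the other 5 was -0.98 for Nrros, 0.50 for Ltbp3, -0.36 for Tgfb1 and -0.57 for Furin (log2; edgeR interaction test, adjusted p = 1.08e-05, 0.00161, 0.0458 and 2.25e-04), with 1 KO library on the lung-rich side, so the spread comes from the other groups.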

How the results depend on the processing

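Over 8 libraries 1 of the 10 genes was called lower and 0 higher. The count lower was 2 with the library set, with library sizes alone and with DESeq2, 3 in the 5 other libraries, and 0 without the filter on low counts, where Itgav had an edgeR adjusted p of 0.0638. With the replicate block it was also 0 (Itgav -0.72, edgeR adjusted p = 0.14), when 0 of all 12750 genes passed and 1479 had an unadjusted p under 0.05. The numbers are shared in the labels only: correlations of same-numbered deviations were 0.87, -0.79, 0.69 and 0.75, and WT 2 was most like KO 1. The count higher was 4 in the 5 other libraries, and 2 by DESeq2 with the set. Leaving out 1 library gave 0 to 1 lower and 0 to 1 higher (Nrros, without KO 1) over 8 libraries, and 2 to 3 lower and 0 to 4 higher with the set.

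Signs turned for genes that did not pass with all 8 libraries. With the set Itgb3 was 0.41, Ltbp3 0.0117 and Furin -0.0613, and in the 5 other libraries Itgb3 was 0.34 and Itgb8 0.20. Ltbp1 was -0.00496 with upper quartile scaling, and with voom Itgb3 was 0.17 and Itgb8 9.65e-04. In the fit with the set Tgfb1 was -0.0140 with WT 3 and WT 4 summed and -0.0271 when KO 4 was also dropped, and Ltbp3 was -0.00807 by DESeq2 and -0.00276 with its size factors. With 1 library left out over 8, Itgb3 spanned -1.12 to 0.34, Itgb8 -0.43 to 0.10 and Ltbp1 -1.14 to 0.61. With the set Itgb8 spanned -0.30 to 0.20, Ltbp3 -0.172 to 0.0546, Tgfb1 -0.0174 to 0.189 and Furin -0.16 to 0.14. Without KO 1, Ltbp3 (-0.172) and Furin (0.139) passed (edgeR adjusted p = 0.0217 and 0.0188), with the signs they have in the 5 other libraries. The cause was not tested.

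Without any 1 library but KO 1, edgeR called 0 of all genes over 8 libraries, with 807 to 1451 at an unadjusted p under 0.05. With the set, Itgav and Itgb5 passed under every library left out (edgeR adjusted p up to 0.00205 and 0.00268). With the sum of WT 3 and WT 4 and no KO 4, both still passed while 1.37% of all genes did. The lung-rich side holds 1 KO library, and depth limits Itgb8, with 17 to 43 counts.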
